A study of Mus musculus with 6 samples.

Results

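The genes studied here encode the enzymes that build, sulfate and trim heparan sulfate and chondroitin sulfate, together with related sulfotransferases of the Chst family. They were taken by gene symbol (the Chst, Hs3st, Hs6st, Ndst, Ext, Extl, Xylt, Chsy, Chpf, Csgalnact and Sulf families, with Hs2st1, Ugdh, Ust, Glce, B4galt7, B3gat3 and Dse). Of 47 such genes with at least 1 probe, 28 were detected well enough to be tested, out of 9190 tested genes in all. A probe counted as detected at a detection p-value under 0.01, and a gene was tested when a probe of it was detected on 3 or more of the 6 arrays.

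The arrays were Illumina bead arrays of laser-dissected mouse ectoderm at embryonic day 9.5, when the head ectoderm that touches the optic vesicle forms the thickened plate from which the lens arises. The 3 Pax6-/- arrays hold tissue labelled surface ectoderm and the 3 wild-type arrays tissue labelled lens placode, both on a mixed background of FVB and 129. For each genotype, RNA of 3 embryos was combined into 1 pool and then amplified 3 times, so the arrays of a genotype are technical replicates. Each p-value therefore sets 1 pool against the other and understates the variation among embryos. The labels do not say which part of Pax6 the mutant allele lacks. Whether mutant and wild-type embryos were littermates, and of which sex they were, is not given either. Genotype cannot be told apart from the tissue taken, nor from embryo sex. The Y-linked genes Eif2s3y and Kdm5d were each detected on 0 Pax6-/- arrays and 3 wild-type arrays. The part of embryo sex was not tested for any of the enzyme genes.

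Heparan sulfate and chondroitin sulfate are long, negatively charged sugar chains carried by core proteins at the cell surface and in the matrix. Both start from the same short linker on the core protein, are lengthened by separate polymerases, and are then changed in the Golgi by sulfotransferases and epimerases, whose pattern of sulfate groups sets which growth factors the chain binds. Heparan sulfate acts as a co-receptor for FGF ligands, and in the mouse its sulfation is required for early lens development.

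Each array detected 16242 to 17735 of its 45281 probes. The first part of each array code in the labels was read as its slide. Slide 1 held Pax6-/- arrays 2 and 3 and wild-type arrays 1 and 3. Slide 2 held Pax6-/- array 1 and wild-type array 2. Over the tested genes, log2 intensities of arrays from the same pool correlated at 0.947 to 0.954 and of arrays from different pools at 0.925 to 0.936. Pax6 transcript was lower in Pax6-/- ectoderm by a log2 change of -0.97 (SE 0.13, limma adjusted p = 0.00237) and stayed detected on all 3 Pax6-/- arrays. Ectodermal identity was checked on 9 marker genes, of which Epcam, Cdh1, Krt8, Krt18, Trp63, Eya1 and Sox2 were detected on all 6 arrays. Of these, Trp63 was called higher (0.77) and Sox2 lower (-0.95) in Pax6-/- ectoderm, against 3.28% of all tested genes called. At an unadjusted p under 0.05 (limma), 1 of the 7 was higher and 3 were lower, against 16.9% of all tested genes. The 3 lower were Sox2, Epcam (-0.33) and Cdh1 (-0.22). The lens genes Pitx3 and Foxe3 were not tested, being detected on 1 and 0 arrays.

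Among the 28 enzyme genes, 1 passed the test. Chst15, which adds a second sulfate to chondroitin 4-sulfate, rose 4.33-fold in Pax6-/- ectoderm, while 0 enzyme genes fell (limma, adjusted p under 0.05 over all 9190 genes). The share called, 1 of 28, compares with 3.28% of all tested genes (1.51% called higher and 1.76% called lower), so the number of calls among the enzymes was close to the background. At an unadjusted p under 0.05, 5 enzyme genes were higher (Chst15, Hs6st2, Sulf2, Ext2 and Chst10) and 1 was lower (Hs3st1, which entered the test through its wild-type arrays alone), 6 of 28 in all, against 16.9% of all tested genes. For 7 of the 28, again including Hs3st1, every Pax6-/- array lay on the same side of every wild-type array, against 22.8% of all tested genes. The change was above 0 for 18 genes and below 0 for 10, with a median of 0.24 (also 0.24 with Hs3st1 at its bound), against -0.01 for all tested genes. That median was 0.07 without wild-type array 3, 0.115 without Pax6-/- array 3 and 0.15 without Pax6-/- array 1 or on slide 1 alone. It was 0.12 with median scaling or the mean over kept probes and 0.109 with no background correction. Here and in what follows, array values are normalised log2 intensities and a change is the Pax6-/- mean minus the wild-type mean on that scale, with adjusted p-values from limma.

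**Figure D1:**
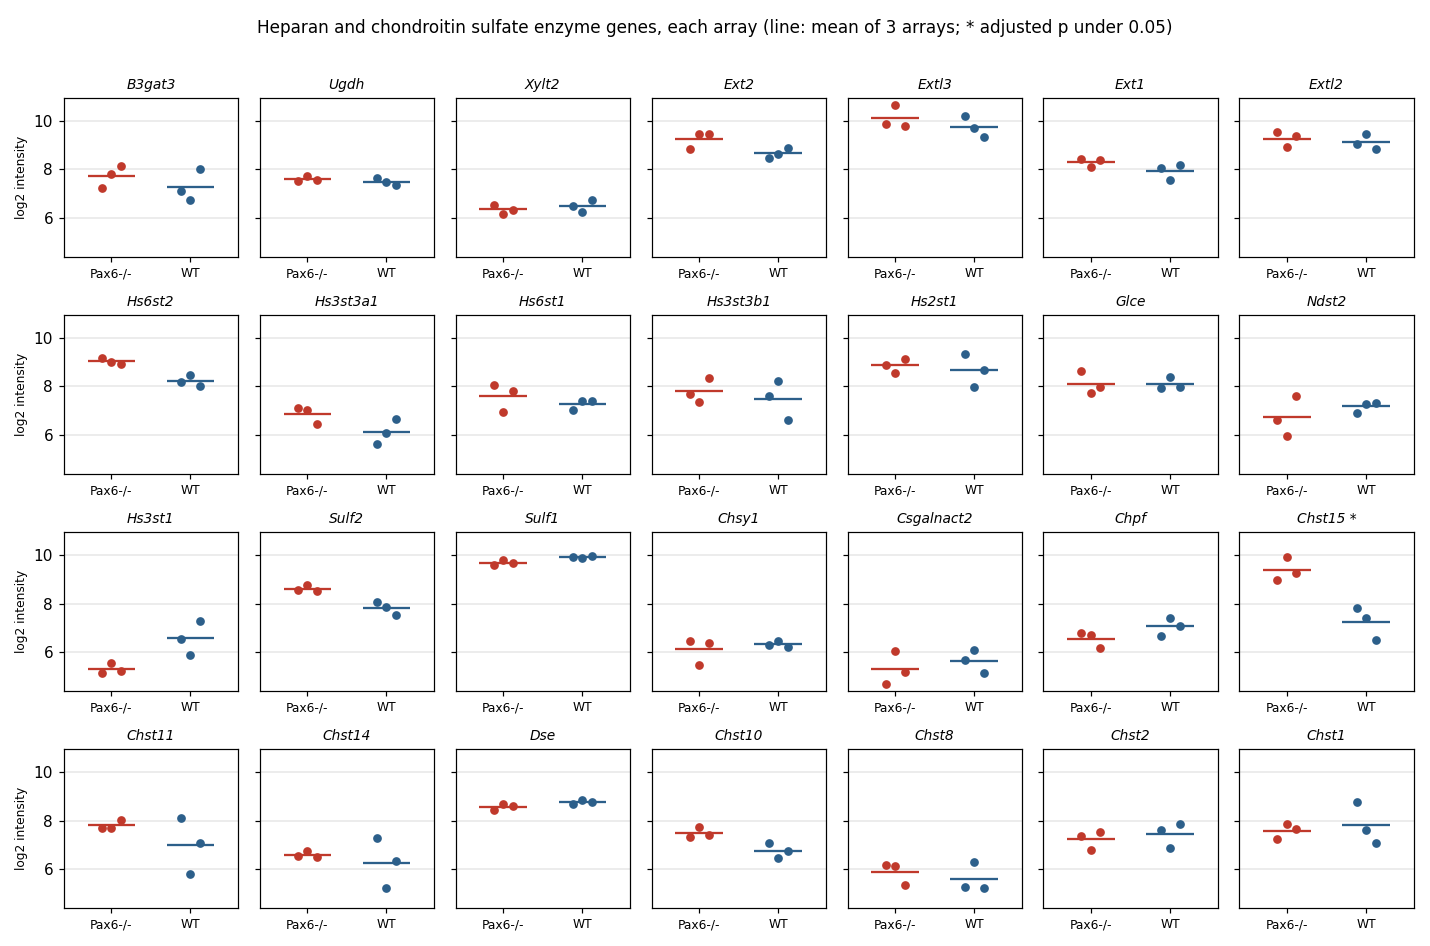
Log2 intensity (vertical axes) of the 28 tested enzyme genes on each array, 1 panel per gene, with 3 Pax6-/- arrays (red, left) and 3 wild-type arrays (blue, right), replicates 1 to 3 from left to right and a line at the mean. Levels are not comparable between panels, because each gene has its own probe. Chst15, marked with an asterisk, is the 1 gene past the threshold.

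The 28 changes are plotted by enzyme role, with their 95% intervals, in the plot of changes. The interval lay wholly above 0 for Ext2, Hs6st2, Sulf2, Chst15 and Chst10. The intervals are not adjusted for the number of genes tested. The genes named are therefore those already given as higher at an unadjusted p under 0.05, and this is no further evidence. At that level 785 of all 9190 tested genes were higher in Pax6-/- ectoderm (limma). The interval of Hs3st1, drawn below 0, is not read as clear of 0. This gene was detected on 0 Pax6-/- arrays and entered the test through its wild-type arrays. For the genes that did not pass, these intervals reflect the spread between arrays on the probe used, and do not show that the pools were alike. They do not cover differences between probes. A further kept probe of Extl3, for example, stood at -0.95, outside the interval of -0.20 to 0.92 on the probe used. The median standard error of the enzyme genes was 0.33 on the log2 scale, against 0.28 for all tested genes.

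**Figure D2:**
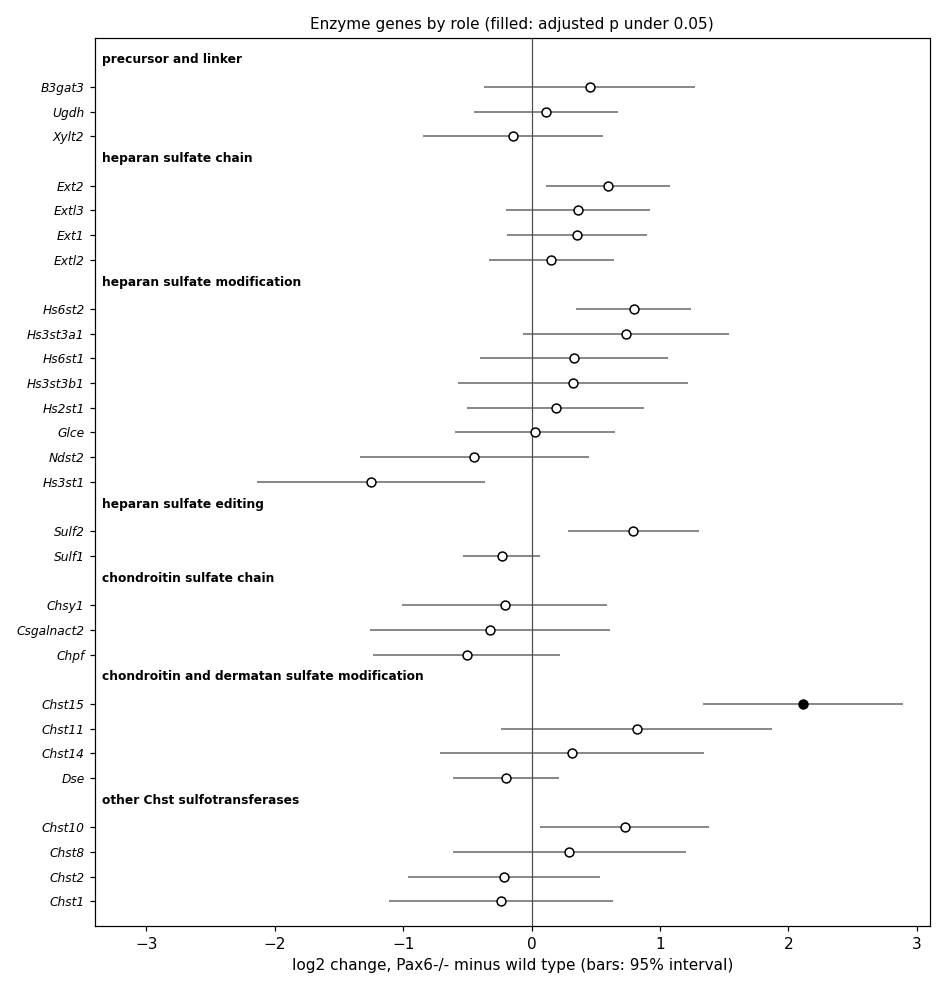
Log2 change (Pax6-/- minus wild type, horizontal axis) of each tested enzyme gene, grouped by role. Points are the estimated changes and bars their 95% intervals, and the filled point is Chst15 at 2.12, the other 27 being open because they did not pass an adjusted p under 0.05. Hs3st1 is drawn at its fitted value, although its level in Pax6-/- ectoderm is only a bound.

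Chondroitin and dermatan sulfate modifying enzymes held the 1 called gene. Chst15 is a sulfotransferase that adds a 6-O-sulfate to N-acetylgalactosamine already sulfated at the 4-O position, which makes the disulfated chondroitin sulfate E. Its log2 intensity was 8.96, 9.89 and 9.23 on the 3 Pax6-/- arrays, against 7.82, 7.42 and 6.49 on the wild-type arrays. Every Pax6-/- array lay above every wild-type array, with a gap of more than 1 log2 unit between the nearest arrays. The raw bead signals showed the same order, at 618, 996 and 735 on the Pax6-/- arrays against 367, 280.5 and 214 on the wild-type arrays, each a mean over 25 to 46 beads with a bead standard error of 7.35 to 36.7. Mean log2 intensity was 9.36 ± 0.48 in Pax6-/- ectoderm and 7.24 ± 0.68 in wild type (SD, 3 arrays each). The log2 change was 2.12 (SE 0.35, 95% interval 1.34 to 2.89, limma adjusted p = 0.00862), the 9th highest of the 9190 changes. The call was lost when the fit had no intensity trend (2.12, adjusted p = 0.0563).

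The probes of Chst15 differed in size of change. A further probe, also detected on all 6 arrays, read 7.86, 8.55 and 8.32 in Pax6-/- ectoderm and 7.76, 7.22 and 8.28 in wild type. On that probe the genotypes overlapped, since wild-type array 3 stood close to the Pax6-/- arrays, and its change of 0.49 (SE 0.31) did not pass (adjusted p = 0.486 when each kept probe was tested). On the mean of both probes the change was 1.30 (adjusted p = 0.0175). By slide, the change of the main probe was 2.41 on slide 1 (2 arrays per genotype, adjusted p = 0.0515, so the call was lost) and 1.54 on slide 2 (1 array per genotype, no test).

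The sequence before the most upstream RefSeq start of Chst15 is shown because it is the 1 called gene, and that of Hs3st1 because it had the lowest change of the set, as fitted and at its bound. Each line gives 250 bases before the start, 5′ to 3′, from the minus strand of GRCm38.p6 (RefSeq), at chr7:132317229-132317478 for Chst15 and chr5:39644632-39644881 for Hs3st1. Capitals mark a GC box (GGGCGG on either strand), and no other motif searched for was found in either window.
Chst15: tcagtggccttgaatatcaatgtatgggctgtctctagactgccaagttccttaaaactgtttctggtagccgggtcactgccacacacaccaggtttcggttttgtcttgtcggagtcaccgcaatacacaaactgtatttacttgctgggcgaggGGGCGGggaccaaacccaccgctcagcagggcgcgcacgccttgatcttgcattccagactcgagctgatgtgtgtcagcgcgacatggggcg
Hs3st1: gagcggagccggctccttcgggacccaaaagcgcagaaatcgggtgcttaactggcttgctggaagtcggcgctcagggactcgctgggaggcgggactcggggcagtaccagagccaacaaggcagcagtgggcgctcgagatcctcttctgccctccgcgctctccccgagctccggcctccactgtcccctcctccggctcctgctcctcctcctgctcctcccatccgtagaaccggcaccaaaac
The G+C content of the window was 54.8% for Chst15 and 66% for Hs3st1.

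Windows of this kind were given for 25 of the 28 tested enzyme genes, 30 windows in all because some genes have several starts, and were set beside all 32851 mouse windows of the same length. The core of the Pax6 paired-domain motif (TTCACGC, either strand) was in 0 of 30 windows and in 1.03% of all windows. The homeodomain palindromes (a TAAT site facing its own reverse complement) were likewise in 0 of 30 windows, with a spacer of 3 bases in 0.463% and of 2 bases in 0.384% of all windows. The GC box was in 20 of 30 windows (66.7%) against 32.7% of all, and GCCNNNGGC, a motif of AP-2 factors that can overlap a GC box, in 10 of 30 (33.3%) against 13.7%. The enzyme windows are those of detected genes only, while the full set also holds windows of genes not detected here. Base composition was not matched either, so these shares are not a trait shown to be particular to the enzymes. All counts are matches of letters in a short stretch, and a missing match says only that the letters are not there.

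The other 3 tested enzymes that modify chondroitin and dermatan sulfate did not pass. Chst11, the main chondroitin 4-O-sulfotransferase, read 7.70, 7.71 and 8.02 in Pax6-/- ectoderm, against 8.09, 5.80 and 7.08 in wild type. Its wild-type arrays spanned more than 2 log2 units, so the change of 0.82 (95% interval -0.23 to 1.88) was within their spread. Chst14, which sulfates dermatan sulfate at the 4-O position, had a change of 0.32 (SE 0.47). Its scatter in wild type was similar (5.22 to 7.27, against 6.51 to 6.74 in Pax6-/- ectoderm). A further kept probe of Chst14 gave -0.25 (SE 0.34). Dse, the epimerase that turns chondroitin into dermatan sulfate, read 8.41, 8.67 and 8.58 in Pax6-/- ectoderm and 8.69, 8.82 and 8.74 in wild type. The Dse arrays did not overlap, but the difference was small at -0.20 (SE 0.19, adjusted p = 0.656).

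The 3 tested enzymes that lengthen chondroitin chains all had changes below 0, and 0 of them passed (limma; 0 of 3 at an unadjusted p under 0.05). Chpf, a polymerising cofactor, had the lowest, -0.51 (95% interval -1.24 to 0.22), with 6.79, 6.69 and 6.19 in Pax6-/- ectoderm and 6.69, 7.41 and 7.09 in wild type. Chsy1, a chondroitin synthase, stood at -0.21 (SE 0.36) and was detected on 2 of 3 Pax6-/- arrays and 3 of 3 wild-type arrays. Csgalnact2, which adds the first chondroitin sugar to the linker, stood at -0.32 (SE 0.42) and was dim, being detected on 1 of 3 Pax6-/- arrays and 2 of 3 wild-type arrays.

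Enzymes that modify heparan sulfate went both ways, and of 8 tested 0 passed (limma, 2 at an unadjusted p under 0.05, Hs6st2 and Hs3st1). Hs6st2, a 6-O-sulfotransferase, read 9.17, 9.0004 and 8.92 in Pax6-/- ectoderm, against 8.20, 8.47 and 8.04 in wild type. All Pax6-/- arrays were higher than all wild-type arrays, and the change of 0.79 (SE 0.20, 95% interval 0.35 to 1.24) missed the threshold (adjusted p = 0.0621). The change was 0.84 on slide 1 and 0.71 on slide 2. With 1 array left out or another processing it ranged over 0.60 to 0.93 and was not called under any of the 17 alternatives fitted gene by gene (adjusted p 0.0608 to 0.232). Its paralogue Hs6st1 stood at 0.33 (95% interval -0.40 to 1.06), with overlapping arrays.

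Hs6st2 had 4 further kept probes. Of these, 3 gave higher changes of 0.96, 1.32 and 1.55 (SE 0.32 to 0.62) but were detected on only 1 of 3 wild-type arrays. The other, detected on all 6 arrays, read 7.65, 7.26 and 7.04 in Pax6-/- ectoderm and 7.57, 7.12 and 7.12 in wild type, a change of 0.05 (SE 0.30). None of the 4 passed when each kept probe was tested (limma adjusted p 0.153 to 0.966, 3 at an unadjusted p under 0.05). Hs6st2 lies on the X chromosome, and the pools differed in sex-linked transcripts: the X-inactivation RNA Xist was higher in Pax6-/- ectoderm by 1.54 and the Y-linked Eif2s3y was detected on 0 of 3 Pax6-/- and 3 of 3 wild-type arrays. Across the 310 tested X-linked genes the median change was -0.02, with 7 genes called higher and 3 lower (3.23%, against 3.28% of all tested genes). The part of embryo sex in the Hs6st2 difference was not tested.

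The 3-O-sulfotransferases, which add a rare, late sulfate group, stood on both sides of 0. Hs3st1, known for making the antithrombin-binding site, read 5.15, 5.57 and 5.23 in Pax6-/- ectoderm and 6.54, 5.87 and 7.30 in wild type. It was detected on 0 Pax6-/- and 3 wild-type arrays, so its level in Pax6-/- ectoderm is only a bound. The bound was taken per array as its own value or the dimmest detected probe, whichever was higher. Against the mean bound the point estimate was at least 1.78-fold lower, with no allowance for the spread between arrays. Hs3st1 did not pass (limma adjusted p = 0.133). Its fitted change ranged from -1.76 to -0.46 over 16 alternatives, 0 of which called it (adjusted p 0.0875 to 0.342). Because it entered the test through its wild-type arrays alone, a difference in this direction was built into its selection. Hs3st3a1 stood at 0.73 (95% interval -0.07 to 1.54) and Hs3st3b1 at 0.32 (95% interval -0.58 to 1.22). Both had a Pax6-/- array within the wild-type range.

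The remaining heparan sulfate modifiers had overlapping arrays. Ndst2, which removes acetyl groups and adds N-sulfate, stood at -0.45 (95% interval -1.34 to 0.45), with Pax6-/- arrays spread from 5.98 to 7.60 and wild-type arrays from 6.93 to 7.33. Hs2st1, the 2-O-sulfotransferase, stood at 0.19 (SE 0.31), and at 0.46 (SE 0.36) on a further kept probe. Glce, the epimerase that makes iduronic acid, stood at 0.03 (95% interval -0.60 to 0.65) and changed sign in 5 of the 17 alternatives. Further kept probes of Glce gave -0.35 (SE 0.44) and 0.73 (SE 0.35), the latter outside that interval.

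Sulf1 and Sulf2 are secreted endosulfatases that remove 6-O-sulfates from finished heparan sulfate chains. Sulf2 read 8.57, 8.74 and 8.51 in Pax6-/- ectoderm, against 8.06, 7.86 and 7.52 in wild type. Its Pax6-/- arrays all lay higher, and the change of 0.79 (SE 0.23, 95% interval 0.28 to 1.30) did not pass over all genes (adjusted p = 0.103). A further Sulf2 probe, detected on all 6 arrays, gave a change of -0.01 (SE 0.25), with 8.40, 8.16 and 7.87 in Pax6-/- ectoderm and 8.26, 7.82 and 8.37 in wild type. On the mean of both Sulf2 probes the change was 0.39 (adjusted p = 0.336). Sulf1 read 9.58, 9.79 and 9.66 in Pax6-/- ectoderm and 9.90, 9.86 and 9.96 in wild type, without overlap. Its change was small, -0.23 (SE 0.14, adjusted p = 0.429), and a further probe stood at 0.08 (SE 0.19).

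The 4 tested genes of heparan sulfate chain growth all had changes above 0, from 0.15 to 0.60, and 0 of them passed (limma, 1 at an unadjusted p under 0.05). Ext2, which with Ext1 forms the polymerase, read 8.83, 9.47 and 9.46 in Pax6-/- ectoderm and 8.48, 8.62 and 8.87 in wild type. Pax6-/- array 1 lay just under wild-type array 3, and the change was 0.60 (95% interval 0.11 to 1.08, adjusted p = 0.19). A further kept probe of Ext2 gave 0.07 (SE 0.34). Ext1 stood at 0.36 (SE 0.25). Extl3, which starts the heparan sulfate chain, stood at 0.36 (SE 0.25) on its brightest probe, and its other 3 probes, all detected on all 6 arrays, gave 0.24, -0.19 and -0.95 (SE 0.25 to 0.45). Extl2, a related transferase that acts on the linker, stood at 0.15 (SE 0.22).

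Genes for the shared precursor and linker showed no called difference (0 of 3 by limma, 0 at an unadjusted p under 0.05). Ugdh, which makes UDP-glucuronic acid, read 7.54, 7.72 and 7.58 in Pax6-/- ectoderm and 7.66, 7.49 and 7.36 in wild type, with a change of 0.11 (95% interval -0.45 to 0.67). B3gat3, which adds the last sugar of the linker, stood at 0.45 (SE 0.37) and Xylt2, which adds the first, at -0.14 (SE 0.32). Further kept probes of B3gat3 gave -0.45 (SE 0.42) and 0.08 (SE 0.53).

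The remaining 4 tested Chst genes act mainly on other glycans. Chst10, which makes the HNK-1 carbohydrate epitope of neural and neural crest cells, read 7.34, 7.73 and 7.40 in Pax6-/- ectoderm, against 7.08, 6.46 and 6.76 in wild type. The arrays did not overlap, and the change of 0.72 (SE 0.30, 95% interval 0.06 to 1.39) did not pass (adjusted p = 0.248). Chst8, which sulfates N-acetylgalactosamine on glycoproteins, stood at 0.29 (SE 0.41), Chst2, an N-acetylglucosamine 6-O-sulfotransferase, at -0.21 (SE 0.34) and Chst1, the keratan sulfate galactose sulfotransferase, at -0.24 (SE 0.40). The wild-type arrays of Chst1 ranged from 7.09 to 8.77, wider than the Pax6-/- arrays at 7.26 to 7.88.

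How far probes of the same gene differed is shown in the plot of probes. In all, 10 enzyme genes had more than 1 kept probe, with 17 further probes between them. Of these 17, 10 had the sign of the probe used and 7 the opposite sign, and 0 passed when each of the 14535 kept probes was tested (limma). Where the probes lie within the transcripts was not analysed here.

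**Figure D3:**
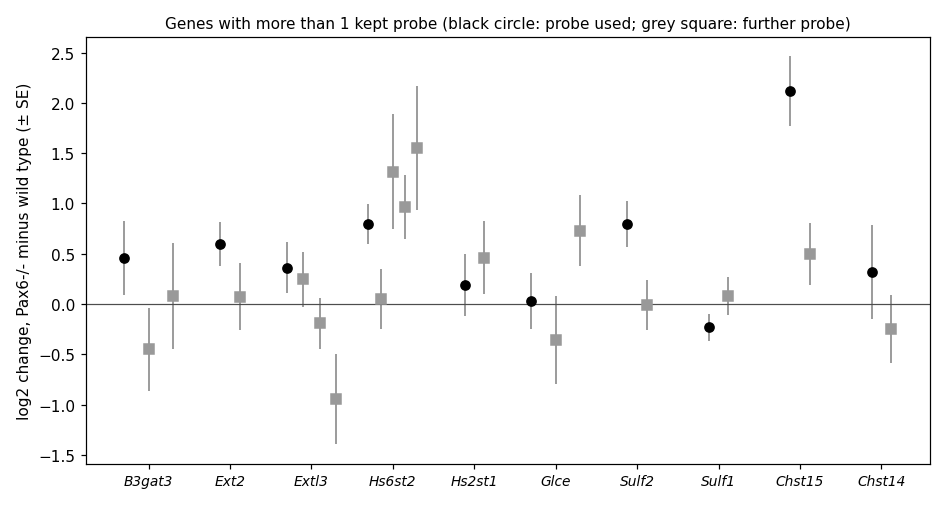
Log2 change (Pax6-/- minus wild type, vertical axis, bars ± SE) of every kept probe of the 10 enzyme genes with more than 1. Black circles are the probes used, the brightest of each gene, and grey squares the further probes, which for Chst15 stand at 0.49 against 2.12.

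The detection threshold left 19 enzyme genes untested. Of these, 15 were detected on 0 arrays: the linker enzymes B4galt7 and Xylt1, the chain enzymes Extl1, Csgalnact1 and Chpf2, the heparan sulfate modifiers Ndst3, Ndst4, Hs3st2, Hs3st5, Hs3st6 and Hs6st3, the chondroitin sulfotransferases Chst12 and Chst13, and Chst4 and Chst9. Just outside the threshold was Chst3, the chondroitin 6-O-sulfotransferase, detected on 1 Pax6-/- and 1 wild-type array. Chst5 and Chst7 were each detected on 1 Pax6-/- array and Ust, a uronyl 2-O-sulfotransferase, on 1 wild-type array. Just inside, on 3 arrays each, were Hs3st1 (0 Pax6-/-, 3 wild type), Csgalnact2 (1 and 2) and Chst8 (2 and 1). Of the 28 tested genes, 23 were detected on all 6 arrays by the probe used. A probe below detection does not show that its gene is silent. Of the Ndst family, Ndst2, Ndst3 and Ndst4 had a probe, while Ndst1 was not among the 47 genes and is not covered here.

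Of 36 other tested genes of the pathway, 1 rose and 0 fell, against 3.28% of all tested genes called. Gpc3, a glypican that carries heparan sulfate, read 13.24, 13.27 and 12.99 in Pax6-/- ectoderm, against 12.89, 12.58 and 12.81 in wild type, without overlap. Its change was 0.41 (SE 0.10, limma adjusted p = 0.0458). The call was lost without Pax6-/- array 1 or 2 or wild-type array 2 or 3, with the slide or replicate number as a block, on slide 1 alone, with median scaling, with no detection filter and without an intensity trend (adjusted p up to 0.328). It was kept in 7 of 17 alternatives, among them the mean over its 2 kept probes (0.71, adjusted p = 0.00671). Gpc4, a further glypican, read 9.03, 8.80 and 8.49 in Pax6-/- ectoderm and 7.004, 8.11 and 7.50 in wild type. The Gpc4 change of 1.24 (SE 0.30) missed the threshold (adjusted p = 0.0516), which it passed in 6 of 17 alternatives and missed in the other 11 (adjusted p 0.0288 to 0.171). With 1 array left out it passed without wild-type array 2 (1.52, adjusted p = 0.0288) and missed in the other 5 fits. Gpc3 and Gpc4 both lie on the X chromosome, and the part of embryo sex in their differences was not tested.

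The 11 tested heparan sulfate core protein genes had a median change of 0.19, and 1 was called higher. Their highest change was that of Gpc4 and their lowest that of Hspg2, which encodes perlecan of the basement membrane, at -0.27 (SE 0.12, adjusted p = 0.302). Of 3 tested chondroitin and dermatan sulfate core proteins, 0 passed (limma, 1 at an unadjusted p under 0.05). Vcan, the large matrix proteoglycan versican, read 9.29, 8.69 and 8.57 in Pax6-/- ectoderm, against 9.39, 9.76 and 9.94 in wild type. All Pax6-/- arrays lay lower, with a change of -0.85 (SE 0.22, adjusted p = 0.0718), which missed the threshold. It passed in 2 of 17 alternatives, without Pax6-/- array 1 (-1.07, adjusted p = 0.0394) and with median scaling (-1.003, adjusted p = 0.0383), and missed in 15 (adjusted p up to 0.207). On the mean over its 4 kept probes the change was -0.56 (adjusted p = 0.168). Bgn, the small proteoglycan biglycan, had the highest change of the 3, at 0.08 (SE 0.32).

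The 11 tested genes of linker and donor supply had a median change of 0.06, and 0 passed (limma, 3 at an unadjusted p under 0.05, among them Papss2, which entered the test through its wild-type arrays alone). Papss2, which makes the sulfate donor PAPS, read 5.24, 5.39 and 4.69 in Pax6-/- ectoderm and 5.84, 6.15 and 6.18 in wild type. It was detected on 0 Pax6-/- and 3 wild-type arrays. Against the bound the point estimate was at least 1.25-fold lower, with no allowance for the spread between arrays. Papss2 did not pass (limma adjusted p = 0.185). B3galt6, a linker galactosyltransferase, had the highest change of that list, at 0.81 (SE 0.49). The 11 tested genes of chain degradation had a median of -0.05 and 0 calls (limma, 1 at an unadjusted p under 0.05), and ranged from -0.35 for the acetyltransferase gene Hgsnat (SE 0.14) to 0.23 for the sulfatase gene Sgsh (SE 0.20).

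**Figure D4:**
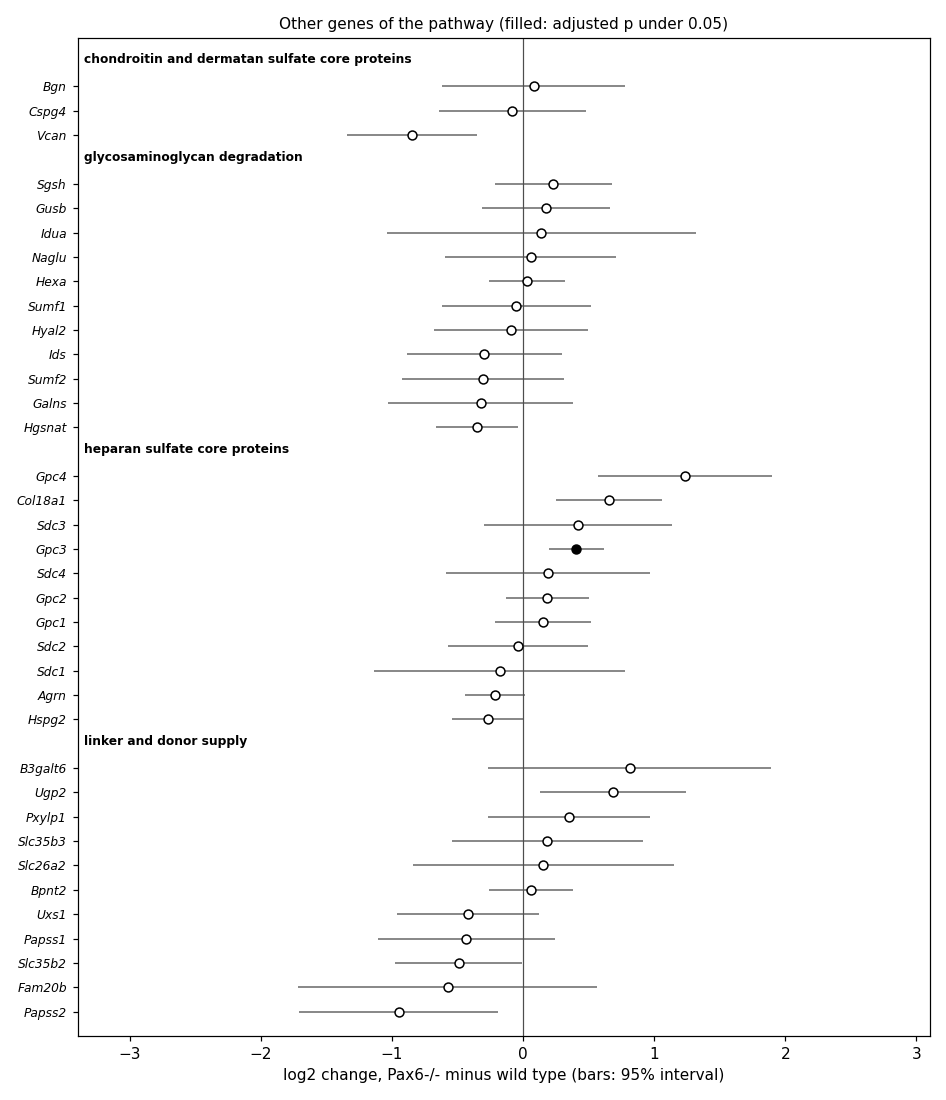
Log2 change (Pax6-/- minus wild type, horizontal axis) of the 36 other tested genes of the pathway, by list, with 95% intervals as bars. The filled point is Gpc3 at 0.41, and among the genes detected in both genotypes the open points farthest from 0 are those of Gpc4 at 1.24 and Vcan at -0.85. Papss2, detected on 0 Pax6-/- arrays, is drawn at its fitted value.

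The summed intensities of several marker lists of adjoining cell types did not overlap between Pax6-/- and wild-type arrays. Of all tested genes, 3.28% were called and 16.9% had an unadjusted p under 0.05 (limma). The summed intensity of 4 tested erythroid markers was 4421 to 4900.2 in Pax6-/- ectoderm and 2141 to 2441 in wild type, with 3 of 4 called higher (Hba-a1 at 1.58, Hbb-y at 0.92 and Hbb-bh1 at 0.92), while Alas2 and Klf1 were detected on 1 array each and Epor on 0. The sum of 10 tested mesenchyme markers was 3646 to 4026 against 3269.5 to 3514 (Alx4 called higher at 0.99, Col3a1 higher at 0.94 and Pdgfra lower at -1.23), with Col1a1 detected on 0 arrays. Alx4 was the brightest of the 10 in Pax6-/- ectoderm (mean 10.38, against 9.40 in wild type). It therefore weighs heavily in this sum of unlogged intensities, and no sum was taken without it. The separation of this sum is therefore not read as a difference in the other mesenchyme markers. Of the 10 changes, 7 were above 0 and 3 below, among the latter Snai2 at -0.52 and Foxc1 at -0.03. The sum of 5 tested optic vesicle and neural tube markers was 1225 to 1384 against 941 to 1113 (0 called by limma, 3 at an unadjusted p under 0.05, among them Lhx2, which was detected on 3 Pax6-/- and 0 wild-type arrays and entered the test through the Pax6-/- arrays alone), with Sox1 and Olig2 detected on 0 arrays. Ectoderm markers summed to 15919 to 17733 in Pax6-/- ectoderm and 17022 to 18228 in wild type. Of endothelial markers 2 of 8 were tested and of macrophage markers 1 of 6, with 0 called (limma, 0 at an unadjusted p under 0.05) and Pecam1, Cdh5, Kdr, Lyz2 and Adgre1 detected on 0 arrays. Their part in the changes of Chst15 and the other enzyme genes was not tested, and in pooled tissue more cells of a type cannot be told apart from more RNA per cell.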

How the data were processed

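Gene expression was measured on 6 Illumina bead arrays, 3 Pax6-/- and 3 wild type, grouped by the titles in the labels. The ectoderm was laser-microdissected from 10 µm frozen sections, per the labels' protocols. Intensity values deposited by the authors are bead averages of each probe, linear and without between-array normalisation, per the file headers. Detection p-values were deposited with them. GenomeStudio is named in the submitters' processing notes, with no version. The authors also deposited a table of normalised intensity values, whose method is not given in the sources used here. Its column medians were 15.5, and 25.1% to 25.2% of its values were negative. It served as an alternative, with values under 16 set to 16.

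Background was corrected here with limma's nec (normexp from the detection p-values, offset 16), followed by quantile normalisation and log2. Each gene was read from its brightest kept probe. Probes were named through the platform annotation (34885 of 45281 with 1 symbol, 18 with several, 10378 with none), updated by Entrez identifier (34807 matched to RefSeq, GRCm38.p6). Pax6-/- and wild type were compared with limma 3.58.1 in R 4.3.3, moderated with an intensity trend, two-sided, with Benjamini-Hochberg adjustment over all tested genes and a threshold of 0.05. The fit was tested on simulated data. Nothing in the labels ties equal replicate numbers to shared embryos. Precision about genotype is limited by 1 RNA pool per genotype, which further arrays of the same pools would not improve.

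The enzyme genes, pathway lists and markers were chosen with earlier results of these data known. Named in the text are all tested enzyme genes, called genes of the other pathway lists and the highest and lowest change of each of those lists. Called marker genes, the markers Snai2 and Foxc1 and neighbouring X-linked genes were named after their values were seen.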

Additional observations from a re-analysis of the deposited data

How the results depend on the processing

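Chst15 was the 1 enzyme gene called in 15 of 17 alternatives, and 0 enzyme genes were called on slide 1 alone (2.41, adjusted p = 0.0515) and without an intensity trend (2.12, adjusted p = 0.0563). With 1 array left out its change was 1.74 to 2.40 (limma adjusted p 0.00942 to 0.0496). The count of enzyme genes called lower was 0 throughout. Of 28 enzyme genes, 17 kept their sign in every alternative that tested them, and the other 11, all uncalled, changed sign in 1 to 5. The median change of the enzyme genes was 0.07 to 0.32.

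Over all genes, 139 were higher and 162 lower. Leaving out 1 array gave 59 to 107 higher and 84 to 119 lower, and slide 1 alone 28 and 40. The counts were 89 and 107 with no detection filter, and 72 and 104 without an intensity trend. With median scaling 94 were higher and 267 lower. The higher share of calls was then 26% in place of 46.2%, and the median change over all genes -0.13 in place of -0.01. With every kept probe tested (chosen after seeing the data) 196 and 208 probes were called.

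Of the other pathway genes, 1 was called higher and 0 lower. The higher count was 0 to 1 with 1 array left out, 0 with the replicate block, slide 1 alone, median scaling, no detection filter or no intensity trend, and 2 with no background correction, an offset of 50, detection on all 6 arrays, the mean over kept probes or every kept probe. The lower count was 0 to 1 with 1 array left out and 1 with median scaling.

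The replicate block left 81 genes higher and 101 lower, and Chst15 was still called (adjusted p = 0.0149). Same-numbered arrays did not deviate together (correlations -0.0259 to -0.00195), and 0 of 3 Pax6-/- arrays correlated best with the wild-type array of their number, so the numbers do not pair the samples.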

Other observations

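Hs6st2, Gpc4 and Gpc3 are near neighbours on the X chromosome in the RefSeq gene order of GRCm38.p6, with 2 other protein-coding genes between Hs6st2 and Gpc4, neither of them tested. This was noticed after their values were seen. In the stretch of 15 protein-coding genes made of these and 5 more on each side, 8 were tested. Hs6st2 (0.79, SE 0.20), Gpc4 (1.24, SE 0.30) and Gpc3 (0.41, SE 0.10) prompted the choice of the stretch. Of the 5 other tested genes, 4 had changes above 0, against 46.8% of the 310 tested X-linked genes and 48.6% of all tested genes. The 4 were Stk26 (0.60, SE 0.29), Frmd7 (0.39, SE 0.10, limma adjusted p = 0.0673), Rap2c (0.22, SE 0.10) and Phf6 (0.74, SE 0.23, adjusted p = 0.127). Hprt stood at -0.15 (SE 0.19). Of the 8, only Gpc3 passed the threshold, and 0 of the 5 neighbours did (limma, 2 at an unadjusted p under 0.05). The median of the tested X-linked genes was -0.02. The part of embryo sex in the changes of this stretch was not tested.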
